A study of Mus musculus with 8 samples.

Results

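Tubulins and stathmin were followed through ribosome profiling of mouse embryonic stem cells (mESCs) that lack Dis3l2, the exoribonuclease that degrades uridylated structured RNAs. The 8 genes were the alpha tubulin genes Tuba1a, Tuba1b and Tuba1c, the beta tubulin genes Tubb2a, Tubb4b, Tubb5 and Tubb6, and the stathmin gene Stmn1, out of 8125 genes listed. They were taken by symbol. Stmn1 was included because its ribosome-protected fragments (RPFs) were fewer in knockout cells, so its RPF change and the ratio built on it are given as a description with no test. The knockout group held Dis3l2 -/- TC1 mESCs made with CRISPR/Cas9, and the control group held Dis3l2 +/- mESCs. Both were kept undifferentiated in LIF and serum and treated with cycloheximide, and each gave 2 input (mRNA) libraries and 2 RPF libraries, so there were 8 libraries. The sources used here do not say whether each genotype came from 1 cell clone, so a difference between clones cannot be told apart from genotype.

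Alpha and beta tubulin form the dimers from which microtubules are built. Cells hold the pool of free dimers steady by autoregulation: when free dimers are in excess, the first residues of a tubulin chain emerging from the ribosome are recognised by TTC5, and the mRNA being translated is degraded through SCAPER and the CCR4-NOT deadenylase. Tubulin mRNA decay of this kind therefore needs the ribosome. Stathmin, the product of Stmn1, binds free tubulin dimers and promotes microtubule shrinkage, and its gene is active in many dividing cells, stem cells included.

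The coding starts are shown because they encode the residues that autoregulation reads. They come from the GENCODE M21 annotation of GRCm38 (mm10), 30 bases each from the start codon, and the capitals mark the first 4 codons.
Tuba1a: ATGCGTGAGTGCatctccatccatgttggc
Tuba1b: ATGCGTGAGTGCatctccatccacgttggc
Tuba1c: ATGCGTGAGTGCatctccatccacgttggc
Tubb2a: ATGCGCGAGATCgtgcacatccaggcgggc
Tubb4b: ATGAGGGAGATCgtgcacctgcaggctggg
Tubb5: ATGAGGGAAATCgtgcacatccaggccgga
Stmn1: ATGGCATCTTCTgatattcaggtgaaagag

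The alpha tubulin genes shared the same 12 capital bases, and Tuba1b and Tuba1c were identical over all 30 bases, with 1 mismatch to Tuba1a. These 12 bases opened the coding sequence of 3 of 21529 protein-coding genes (0.0139%), all of them the alpha tubulin members. Among the beta tubulins, Tubb4b and Tubb5 differed at 1 of the 12 bases, Tubb2a and Tubb4b at 2, and Tubb2a and Tubb5 at 3. All of these differences are synonymous, so the 12 bases of Tubb2a, Tubb4b and Tubb5 encode the same residues. The start of Stmn1, which is not a tubulin, differed from these tubulin starts at 8 or 9 of the 12 bases. In the alpha tubulin genes the first coding exon held 3 coding bases, the start codon alone, against 57 in each beta tubulin gene and 13 in Stmn1.

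In mm10 coordinates the alpha tubulin genes lay together on chromosome 15, with Tuba1b (ENSMUSG00000023004.8) at chr15:98931425-98934565 and Tuba1a (ENSMUSG00000072235.5) at chr15:98949837-98953703, both on the minus strand, and Tuba1c (ENSMUSG00000043091.8) at chr15:99029891-99038110 on the plus strand. The beta tubulin genes were dispersed. Tubb2a (ENSMUSG00000058672.7) lay at chr13:34074274-34078007, Tubb4b (ENSMUSG00000036752.4) at chr2:25222160-25224702 and Tubb5 (ENSMUSG00000001525.10) at chr17:35833921-35838306, all on the minus strand, and Tubb6 (ENSMUSG00000001473.6) at chr18:67390717-67402749 on the plus strand. Stmn1 (ENSMUSG00000028832.11) lay at chr4:134468320-134473843 on the plus strand. Without the stop codon, the tubulin coding sequences were 1332 to 1353 bases long and that of Stmn1 was 447 bases. Each was split over 4 coding exons.

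Near-identical coding sequences limit how far a short fragment can be given to 1 tubulin gene. Tuba1a and Tuba1b were 98.3% identical over their aligned coding sequences, Tuba1b and Tuba1c 97.9%, and Tuba1a and Tuba1c 97.1%. Of all 28-base windows, about the length of a ribosome footprint, 87.5% of Tuba1a, 90.9% of Tuba1b and 92.6% of Tuba1c were found unchanged in another protein-coding gene. For Tubb2a this was 63.1%, all 825 windows of it shared with Tubb2b, which was listed too. The other beta tubulins had few unchanged shared windows, with 1.68% in Tubb4b, 3.98% in Tubb5 and 7.0% in Tubb6, and Stmn1 shared 3.81%. Within 1 mismatch of another tubulin coding sequence lay 13.2% of windows in Tubb4b, 16.2% in Tubb5, 30.8% in Tubb6 and 74.2% in Tubb2a. Against all annotated genes, pseudogenes included, the share of unchanged windows was 96.4% for Stmn1 and 80.1% for Tubb4b. The authors aligned reads with at most 1 mismatch, and the sources used here do not say how reads that match several genes were assigned. Values of single alpha tubulin genes and of Tubb2a are therefore uncertain as to which gene they belong to, and to a lesser degree those of Tubb6, Tubb5 and Tubb4b. For Stmn1 and Tubb4b it is not known whether reads that also match pseudogenes were counted.

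**Figure D1:**
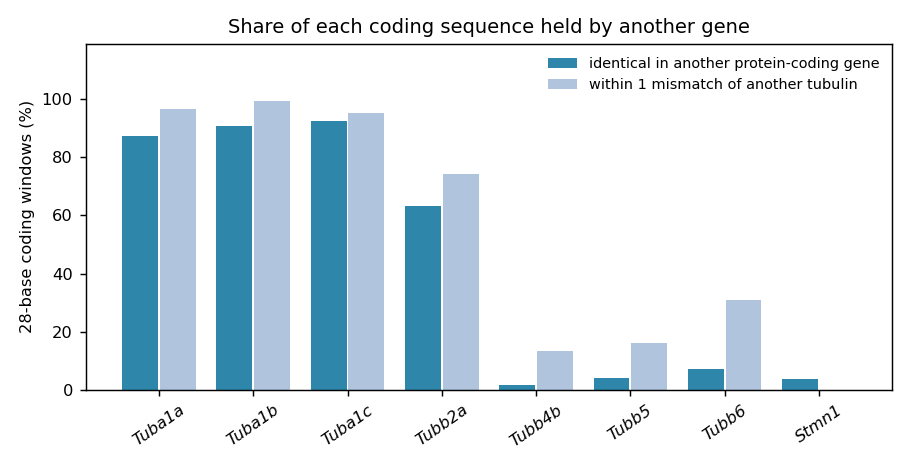
Percentage of 28-base windows of each coding sequence (vertical axis) that occur unchanged in another protein-coding gene (dark bars) or lie within 1 mismatch of another tubulin coding sequence (light bars). Tuba1a, Tuba1b and Tuba1c share 87.5% or more of their windows unchanged and Tubb2a 63.1%, while Tubb4b, Tubb5, Tubb6 and Stmn1 share 7.0% or less. Light bars stand at 13.2% for Tubb4b, 16.2% for Tubb5 and 30.8% for Tubb6.

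Values are given in the authors' normalised units, which scale the reads of a library by 1 common factor and take no account of gene length. The RPF libraries were shallow, above all those of the knockout, with 268255 and 140163 reads in knockout RPF and 558962 and 1126782 in control RPF, against 8382211 to 33609787 in the input libraries. A single RPF read was worth 8.22 and 15.6 units in the knockout and 3.94 and 1.94 in the control, so the precision of RPF values was lowest in knockout replicate 2. Intervals on single libraries below are exact Poisson 95% intervals and cover counting error only. Across all genes, limma called 0.34% of 7946 tested genes changed in input, 0.623% of 6260 in RPF and 0% of 6240 in translation efficiency (TE, RPF relative to input). An unadjusted p under 0.05 in limma was found for 1012 genes in input, 679 in RPF and 814 in TE. With 2 libraries a group, knockout and control values do not overlap in either direction for 44% of all tested genes in input, 42.4% in RPF and 41.8% in TE.

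The 10 pluripotency markers examined, among them Pou5f1, Nanog and Sox2, were all listed, with summed input of 13056 to 13426 in knockout and 13129 to 13229 in control libraries. Their summed RPF was 15233 to 15706 in knockout and 16426 to 16794 in control libraries. Markers of primitive endoderm (3 of 7 listed) summed to 843 to 902 in knockout and 605 to 616 in control input and to 1275 to 1586 in knockout and 822 to 925 in control RPF. Fibroblast markers (2 of 6 listed) summed to 770 to 861 in knockout and 884 to 997 in control input and to 1431 to 1438 in knockout and 1966 to 2103 in control RPF, and neural markers (5 of 10 listed, among them Tubb3 and the stathmin gene Stmn2) overlapped between genotypes in both. Every listed gene had at least 1 read in each library, so no marker could be seen at 0, and markers that were not listed were not analysed here. In such bulk libraries fewer cells of a type and less RNA per cell cannot be told apart, and the part of these markers in the results below was not tested. The genotypes rest on the labels, as Dis3l2 was not analysed here.

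Input mRNA of the tubulin and stathmin genes differed little between genotypes. Of the 8 genes 0 passed in limma, against 0.34% of all genes. An unadjusted p under 0.05 was found for 1 (Tuba1a), as for 1012 of all 7946 genes. The median log2 change was -0.01, against 0.00 over all genes. A positive log2 change here means higher in knockout by the names of the library columns. The authors' own deposited change of TE, whose header states no direction, had the opposite sign to this in 985 of the 985 genes they called, so the direction of every signed value rests on those column names. Log2 changes are on the scale of log2(value + 10), which understates the change of low genes.

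Among the alpha tubulins, Tuba1a had input values of 123 and 106 in knockout and 163 and 124 in control libraries, a log2 change of -0.29 (95% interval -0.55 to -0.04, limma adjusted p = 0.333). The knockout values lay just below both control values, and 21.1% of all genes showed that in input. Over the omission of each library it ran from -0.11 without control input replicate 1 (limma adjusted p = 0.719) to -0.48 without control input replicate 2 (limma adjusted p = 0.00139), and without knockout input replicate 2 it was -0.20. Tuba1b had 290.3 and 255 in knockout and 309.6 and 239 in control libraries, which overlapped (log2 change -0.00). Tuba1c was the steadiest of the alpha tubulins in input, with 239 and 233 in knockout and 228 and 225 in control libraries (log2 change 0.06, limma adjusted p = 0.761).

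Tubb5, the main beta tubulin gene of these cells, had by far the highest input, with 3870 and 3692 in knockout and 4051 and 3813 in control libraries (log2 change -0.06, 95% interval -0.20 to 0.09). Tubb4b followed with 933 and 852 in knockout and 1016 and 869 in control libraries (-0.07), and Tubb6 was at 203 and 199 in knockout and 203 and 193 in control libraries (0.02). The genotypes overlapped for all 3 genes. Tubb2a was the lowest member, with 55.1 and 54.3 in knockout and 46.6 and 52.3 in control libraries (0.12, limma adjusted p = 0.593). For Tuba1c and Tubb2a both knockout values exceeded both control values, as in 22.9% of all genes. Stmn1 input was 537 and 507 in knockout and 509 and 550 in control libraries. These overlapped, and the interval of the log2 change ran from -0.17 to 0.13 around -0.02 (limma adjusted p = 0.928).

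**Figure D2:**
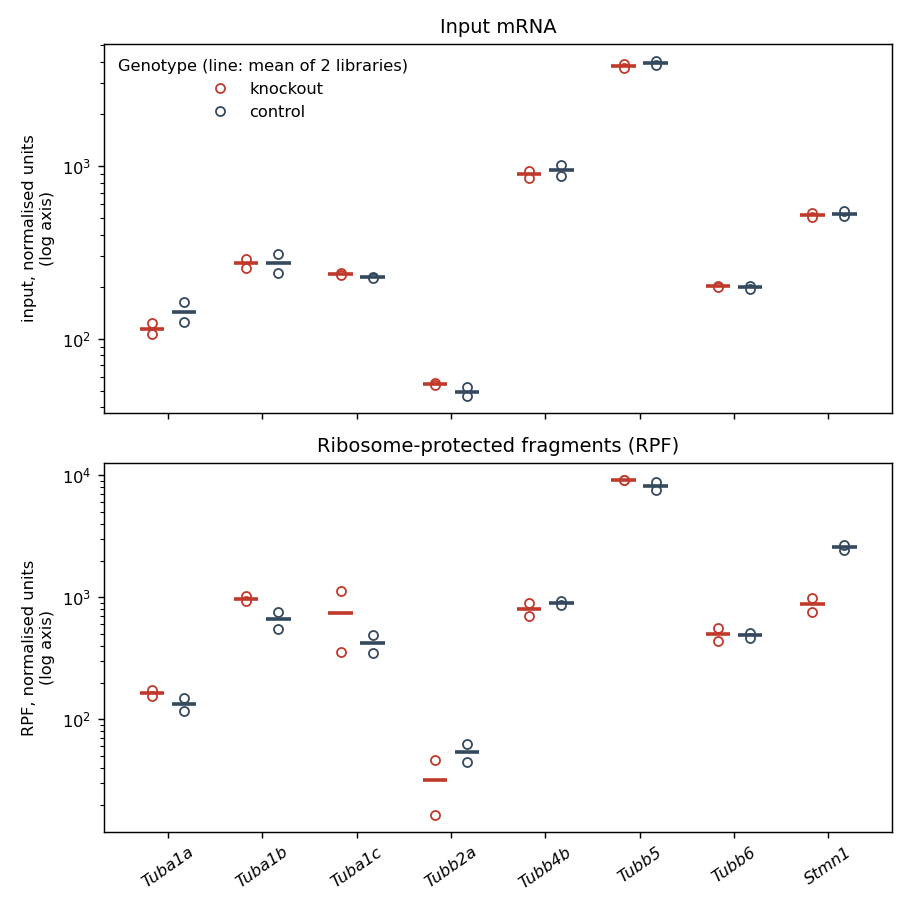
Input (top) and RPF (bottom) values in normalised units on log axes for each gene, with 1 circle per library (knockout left, control right) and a line at the mean of the 2 libraries. Stmn1 has like input in both genotypes and RPF of 764 and 995 in knockout against 2450 and 2684 in control, and the RPF values of Tuba1c in knockout lie far apart, at 1134 and 358.

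Stmn1 was the member with far fewer RPFs in knockout cells. Its RPF values were 764 and 995 in knockout libraries and 2450 and 2684 in control libraries, from 93 and 64 reads in knockout and 622 and 1384 reads in control. The counting intervals were 617 to 936 and 766 to 1271 in knockout and 2261 to 2650 and 2544 to 2829 in control. The means were 880 ± 163 in knockout and 2567 ± 166 in control (SD, n = 2 each). The log2 change of -1.54 was the 28th lowest of 6260 genes, a rank that follows from how the gene was chosen and carries no test. It ranged from -1.73 to -1.36 over 13 alternative settings, the omission of each RPF library included.

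Because input of Stmn1 was level, the difference carried over to the ratio of RPF to input. This ratio was 1.42 and 1.96 in knockout and 4.81 and 4.88 in control libraries, with means of 1.69 ± 0.38 in knockout and 4.85 ± 0.05 in control (SD, n = 2 each). Input and RPF libraries were paired by number alone, so these SDs depend on that pairing and do not measure precision. Over all tested genes, replicate differences in input and in RPF correlated at 0.005 in knockout and 0.02 in control. In control cells Stmn1 was among the genes with the most RPF per input: 98.3% and 98.0% of 6240 genes had a lower ratio in the same libraries. In the knockout libraries 67.0% and 81.3% of genes did. Stmn1 made up 0.0402% of the summed RPF values in knockout and 0.117% in control, and 0.0246% of the summed input in knockout and 0.0253% in control.

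Tubulin RPFs differed less between genotypes, and most of the changes were above 0. Of the 7 tubulin genes 6 could be tested in RPF, since Tubb2a lay under the minimum mean of 50. In limma 0 of the 6 passed, against 0.623% of all genes. An unadjusted p under 0.05 was found for 1 (Tuba1b), as for 679 of all 6260 genes. The log2 change was positive in 5 and negative in 1 (Tubb4b), and Tubb6, at 0.01, turned to -0.03 with equalised library medians. Their median was 0.23, against -0.02 over all genes. The knockout libraries were both higher than the control libraries for 3 of the 6 (Tuba1a, Tuba1b and Tubb5) and both lower for 0. Among all genes 21.6% were higher in this way and 20.8% lower. The alpha tubulins share most of their windows, so their changes may draw on the same reads. They are not separate observations in these counts and this median.

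Tuba1b had RPF values of 1019 and 933 in knockout libraries and 555 and 766 in control libraries, from 124 and 60 reads in knockout and 141 and 395 in control. Every knockout value was above every control value, and the log2 change was 0.57 (95% interval 0.11 to 1.04, limma adjusted p = 0.36). It was 0.34 without control RPF replicate 1 (limma adjusted p = 0.9998) and 0.80 without control RPF replicate 2 (limma adjusted p = 0.519), and passed in 1 of the omissions, at 0.64 without knockout RPF replicate 2 (limma adjusted p = 0.0406). Tuba1a, the lowest alpha tubulin, had 173 and 156 in knockout and 118 and 149 in control libraries, from 21 and 10 reads in knockout and 30 and 77 in control, and its log2 change of 0.28 had an interval of -0.48 to 1.05 (limma adjusted p = 0.819). It was 0.13 without control RPF replicate 1 and 0.44 without control RPF replicate 2.

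The knockout replicates disagreed on Tuba1c. Its RPF values were 1134 and 358 in knockout libraries and 351 and 491 in control libraries. Knockout replicate 1, with 138 reads and a counting interval of 953 to 1340, lay above replicate 2, with 23 reads and an interval of 227 to 537, by more than counting error, and replicate 2 fell within the control range. The log2 change was 0.61 (95% interval -0.23 to 1.45, limma adjusted p = 0.603). It was -0.21 without knockout replicate 1 and 1.43 without knockout replicate 2 (limma adjusted p = 2.59e-07), so 1 library decided it. Input of Tuba1c differed by 1.03-fold between the knockout replicates.

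Since the alpha tubulins share most of their windows, they were also summed. Summed alpha tubulin RPF was 2325 and 1446 in knockout and 1024 and 1406 in control libraries, with means of 1886 ± 622 in knockout and 1215 ± 270 in control (SD, n = 2 each), a log2 ratio of the means of 0.63. The spread of knockout replicates came mainly from Tuba1c. Summed alpha tubulin input was 653 and 593 in knockout and 701 and 588 in control libraries and overlapped.

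Among the beta tubulins, Tubb5 had the most RPFs, with 9210 and 9190 in knockout and 8806 and 7542 in control libraries. It was also the best measured member, with 1121 and 591 reads in knockout and 2236 and 3889 in control, and its log2 change was 0.17 (95% interval -0.09 to 0.44, limma adjusted p = 0.63). This was 0.29 without control RPF replicate 1 and 0.06 without control RPF replicate 2. Tubb4b had RPF values of 707 and 902 in knockout and 925 and 871 in control libraries (log2 change -0.17, 95% interval -0.61 to 0.27), and Tubb6 had 435 and 560 in knockout and 512 and 467 in control libraries (0.01, 95% interval -0.50 to 0.53). Both overlapped between genotypes.

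Tubb2a was too sparse for a comparison of RPFs. It had 16.4 and 46.7 in knockout libraries, from 2 and 3 reads, and 63.0 and 44.6 in control libraries, from 16 and 23 reads. The counting intervals of 1.99 to 59.4 and 9.62 to 136 in knockout covered most of the control range, so a difference was not detectable at this depth. Summed over the beta tubulin members, RPF was 10369 and 10699 in knockout and 10306 and 8924 in control libraries, a log2 ratio of the means of 0.13.

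**Figure D3:**
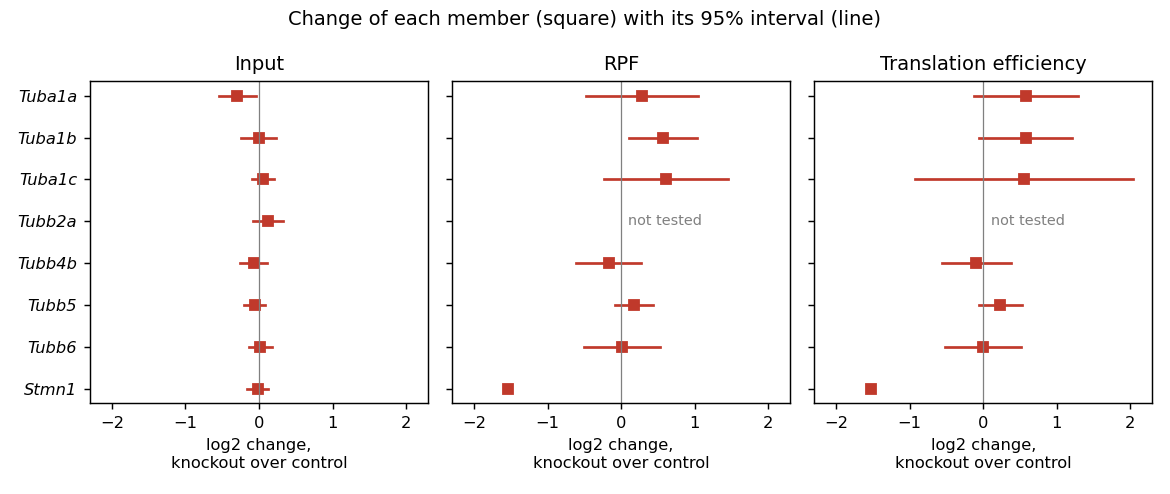
Log2 change of each gene, knockout over control (horizontal axis), in input, RPF and TE, with 95% intervals from limma as lines, and for Stmn1 in RPF and TE no interval, since the gene was chosen on that change. Input changes lie between -0.29 and 0.12, the tested tubulins lie between -0.17 and 0.61 in RPF, and Stmn1 stands at -1.54 in RPF and -1.53 in TE.

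RPF over input differed widely among the tubulin genes. Tuba1b had ratios of 3.51 and 3.67 in knockout and 1.79 and 3.20 in control libraries, Tubb5 had 2.38 and 2.49 in knockout and 2.17 and 1.98 in control, and Tubb6 had 2.15 and 2.81 in knockout and 2.53 and 2.42 in control. Tubb4b, by contrast, was near 1 everywhere, with 0.757 and 1.06 in knockout and 0.911 and 1.0 in control libraries. The median ratio over 6240 genes was 1.02 to 1.04 in each pair of libraries, and the ratio of Tubb5 was above that of 84.8% to 87.7% of genes in all 4.

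Tuba1a had ratios of 1.41 and 1.47 in knockout and 0.726 and 1.20 in control libraries, with both knockout values above the control. For Tuba1c they were 4.74 and 1.54 in knockout and 1.53 and 2.18 in control, and for Tubb2a 0.298 and 0.860 in knockout and 1.35 and 0.853 in control, which overlapped in both genes. In limma's interaction of genotype and library kind, 0 of 6 tested tubulins passed, as for 0% of all genes. An unadjusted p under 0.05 was found for 0 of the 6, against 814 of all 6240 genes. That fit took a single variance per gene over the deep input and the shallow RPF libraries together. TE intervals can therefore be too narrow and p-values too small. For Tuba1a the standard error was 0.305 in TE, below the 0.358 in RPF alone. The alpha tubulins had TE changes of 0.58 (Tuba1a, limma adjusted p = 0.472), 0.57 (Tuba1b, 0.411) and 0.55 (Tuba1c, 0.756), with ranges over the omission of each library of 0.39 (without control input replicate 1) to 0.76 (without control input replicate 2) for Tuba1a and of 0.35 (without control RPF replicate 1) to 0.80 (without control RPF replicate 2) for Tuba1b. Without knockout RPF replicate 1 that of Tuba1c was -0.26, against 1.37 without knockout RPF replicate 2 (limma adjusted p = 0.0178). Beta tubulin TE changes were 0.23 for Tubb5 (95% interval -0.06 to 0.52, limma adjusted p = 0.483; 0.12 without control RPF replicate 2), -0.09 for Tubb4b and -0.01 for Tubb6. Knockout ratios lay above both control ratios for Tuba1a, Tuba1b and Tubb5, a pattern seen in 21% of all genes. The alpha tubulins may again draw on the same reads, so their like TE changes are not separate observations. The TE change of Stmn1 was -1.53, the 36th lowest of 6240 genes, again as a description.

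**Figure D4:**
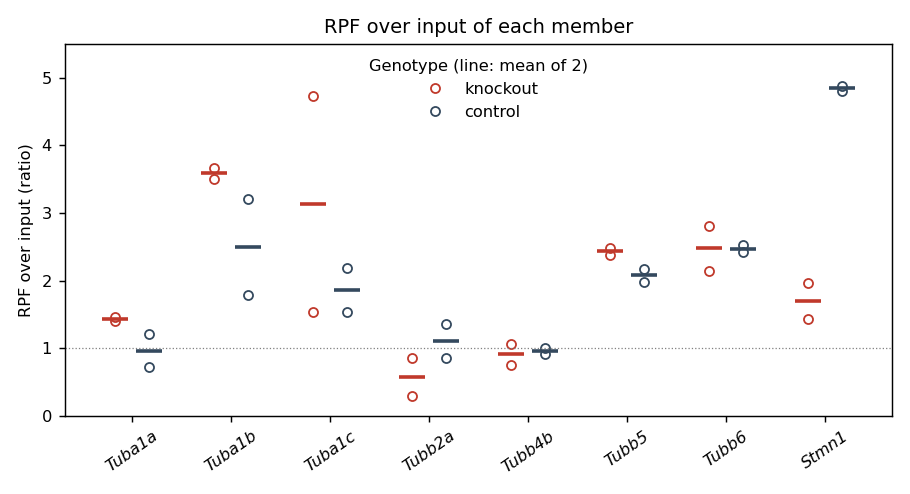
Ratio of RPF to input of each gene (vertical axis, from 0, dotted line at 1), with 1 circle per pair of libraries of the same number (knockout left, control right) and a line at the mean of 2. Stmn1 is at 1.42 and 1.96 in knockout and 4.81 and 4.88 in control, Tubb4b lies near 1 in both genotypes, and Tuba1c in knockout spreads from 1.54 to 4.74.

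Per kilobase of full coding length, with shared windows counted in full, Tubb5 had the highest mean RPF level of the 8 genes in both genotypes. A setting added after the data had been seen divided all RPF of a gene by its kilobases of unshared windows. There Tuba1b (8420 and 7711) stood above Tubb5 (7351 and 7335) in the knockout libraries, and Tuba1c (11570 and 3650) lay on both sides of Tubb5. In the control libraries Tuba1b (4589 and 6331) overlapped with Tubb5 (7028 and 6019), and Tuba1c (3577 and 5006) lay below Tubb5. By full coding length, the mean RPF of Tubb5 in knockout libraries was 6907 units per kb. Stmn1 (1968), Tuba1b (721), Tubb4b (602), Tuba1c (554), Tubb6 (371), Tuba1a (121) and Tubb2a (23.6) followed. Tuba1c, which spread from 266 to 842, overlapped with Tuba1b, Tubb4b and Tubb6 in this order. In control libraries Tubb5 (6137) and Stmn1 (5742) overlapped, and Tubb4b (673), Tuba1b (488), Tubb6 (365), Tuba1c (312), Tuba1a (98.8) and Tubb2a (40.3) came after them, with overlap only between Tubb6 and Tuba1c. On the same scale in input, Tubb5 (2839 in knockout and 2952 in control) stood above Stmn1 (1168 in knockout and 1184 in control), and no neighbours overlapped within either genotype. These ranges are over 2 libraries each. The sources used here do not say whether input reads outside the coding sequence were counted. Input per kb of coding length, and ratios built on it, are uncertain to that degree.

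Tubb5 alone made up 74.1% ± 2.20 of the summed RPF of the tubulin members in knockout and 75.4% ± 3.33 in control (SD, n = 2 each), and 68.1% ± 0.529 of their input in knockout and 68.2% ± 1.28 in control. The tubulin members together took 0.567% of all RPF values in knockout and 0.494% in control, and 0.262% of all input values in knockout and 0.275% in control. Beta over alpha tubulin per kb of coding length was 6.01 ± 2.11 in knockout and 8.32 ± 2.67 in control RPF, and 8.03 ± 0.234 in knockout and 8.09 ± 0.563 in control input. The genotypes overlapped in both. Although the dimer holds alpha and beta tubulin in equal numbers, this ratio depends on how shared alpha windows were counted. If only windows not shared with another coding gene could receive reads, it was 0.546 in knockout and 0.760 in control RPF and 0.746 in knockout and 0.762 in control input, so it turned from above 1 to below 1. With windows within 1 mismatch of another tubulin left out instead, it was 0.0552 in knockout and 0.0777 in control RPF. In input it was then 0.0896 in knockout and 0.0920 in control. Only 0.006 kb of Tuba1b remained in that setting, and dividing its whole value by this length largely sets the ratio. Both of these settings were added after the data had been seen.

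Other genes of tubulin biology were examined in 8 lists, and 1 gene in them passed in 1 comparison. Over all genes tested, 0.34% passed in input, 0.623% in RPF and 0% in TE. The gene that passed was Kif2c, a kinesin that depolymerises microtubule ends, in the list of microtubule-binding and severing proteins (33 of 35 listed). Its input was 722 and 703 in knockout and 486 and 473 in control libraries (log2 change 0.56, limma adjusted p = 0.00252). The genotypes did not overlap there, as for 44% of all genes in either direction. RPF of Kif2c was 444 and 638 in knockout and 579 and 508 in control libraries, which overlapped (-0.03). The TE change of Kif2c was -0.59 (limma adjusted p = 0.373). The list as a whole had a median of 0.06 in input, -0.03 in RPF and -0.09 in TE.

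Of the 13 other tubulin genes 6 were listed, with 0 of 6 passing in input and 0 of 5 in RPF and in TE, and medians of -0.02 in input, 0.12 in RPF and 0.13 in TE. Tubb3, a neuronal beta tubulin, had RPF of 435 and 498 in knockout and 268 and 526 in control libraries, Tuba4a had 435 and 358 in knockout and 406 and 520 in control, and Tubb2b had 378 and 264 in knockout and 287 and 343 in control, and all 3 overlapped. Of the 3 other stathmin genes 2 were listed, and 0 passed. Stmn2 had RPF of 1372 and 1073 in knockout and 902 and 1098 in control libraries, which overlapped (log2 change 0.28, 95% interval -0.15 to 0.71), with input of 628 and 614 in knockout and 558 and 599 in control. Stmn3 was lower, with input of 29.8 and 23.4 in knockout and 19.5 and 20.8 in control libraries (0.27, limma adjusted p = 0.355), and was not tested in RPF.

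Of the genes that carry out tubulin autoregulation (Ttc5, Scaper and the CCR4-NOT subunits), 10 of 13 symbols were listed (Scaper and Cnot6l were not analysed here, and Rqcd1 is an old symbol of Cnot9, which was listed) and 0 of 10 passed in any of the 3 comparisons, with medians of 0.05 in input, 0.03 in RPF and -0.01 in TE. Their RPF changes ranged from -1.11 to 1.17, with 2 of 10 at an unadjusted p under 0.05 in limma, against 679 of 6260 over all genes. Cnot1, the scaffold of the deadenylase, had RPF of 1520 and 1446 in knockout and 1497 and 1421 in control libraries, overlapping, with a log2 change of 0.02 (95% interval -0.34 to 0.39). Cnot10, another subunit, changed by 0.03 in RPF and Cnot9 by 0.19, both with intervals that spanned 0. The CCT chaperonin, which folds newly made tubulin, had 7 of 8 subunits listed and 0 passing, with medians of -0.02 in input, -0.06 in RPF and -0.06 in TE. Its subunit Cct3 had RPF of 2884 and 2597 in knockout and 3458 and 3316 in control libraries (-0.31, limma adjusted p = 0.46). These did not overlap, as for 42.4% of all genes in either direction, while Cct5 and Cct8 did overlap.

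Prefoldin, which passes tubulin to that chaperonin, and the tubulin cofactors had 13 of 13 genes listed and 0 passing, with RPF changes from -0.57 to 0.79 and a median of 0.11. The gamma-tubulin ring complex and augmin, which nucleate microtubules, had 16 of 17 listed and 0 passing. Their median was 0.01 in input, -0.22 in RPF and -0.09 in TE, against -0.02 in RPF and in TE over all genes. The augmin gene Haus5 had RPF of 205 and 389 in knockout and 114 and 140 in control libraries, which did not overlap (1.10, limma adjusted p = 0.292), as for 42.4% of all genes in either direction. Cdk5rap2, at 394 and 124 in knockout and 260 and 262 in control libraries (-0.22), and Haus1, at 140 and 233 in knockout and 185 and 157 in control libraries (0.08), overlapped. Of the tubulin-modifying enzymes 9 of 18 were listed and 0 passed in input (9 tested), RPF or TE (5 tested each). Hdac6, a tubulin deacetylase, had RPF of 362 and 482 in knockout and 272 and 345 in control libraries (0.43, limma adjusted p = 0.596). These did not overlap, as for 42.4% of all genes in either direction. The tubulin tyrosine ligase-like genes Ttll12 (-0.14) and Ttll4 (0.02) overlapped between genotypes.

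The genes most like Stmn1 were sought by Euclidean distance over the 8 libraries, on log2(value + 10) centred within input and within RPF, among 2433 well-measured genes. They were Uqcrh, a subunit of respiratory complex III (distance 0.164), Exosc2, an RNA exosome subunit (0.296), the ribosomal protein gene Rpl24 (0.337), the myosin light chain gene Myl6 (0.342) and the ribosomal protein gene Rps20 (0.392), against a median distance of 1.60. Uqcrh had RPF of 427 and 513 in knockout and 1205 and 1406 in control libraries and level input, at 462 and 460 in knockout and 469 and 471 in control. Fewer knockout RPFs and near-level input in these genes follow from the search itself and carry no test. Among the nearest to the mean of the tubulin members were the condensin subunit gene Ncapd2 (0.0880), the pyruvate kinase gene Pkm (0.118), Tcof1 (0.120) and Klf10 (0.122), against a median of 0.523. That mean weighs each tubulin member equally, the sparse Tubb2a with 2 and 3 knockout RPF reads included. The alpha tubulins in it may draw on the same reads. Likeness to this mean follows from the search and carries no test.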

How the data were processed

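Input and RPF libraries of Dis3l2 knockout and control mESCs (2 each, named biological replicates in the methods) were prepared from cycloheximide-treated cells by the TruSeq Ribo Profile protocol with rRNA depletion. The methods state that the authors trimmed and filtered reads, discarded those of rRNA and tRNA and mapped the rest to mm10 gene models with Bowtie. The sources used here give no Bowtie version and no batch. The deposited signal values, named RPKM, were reads divided by 1 factor per library: all were whole reads within 0.02 read in each library. Median reads per gene were 14 and 7 in knockout RPF, 28 and 55 in control RPF and 441 to 1758 in input. The log2 fold change and the call column deposited by the authors hold their own TE comparison, for which they name DESeq2. They were read only for sign and for which genes were called.

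Log2(value + 10) was compared with limma 3.58.1 (R 4.3.3; two-sided, lmFit followed by eBayes with trend), with TE as the interaction of genotype and library kind. Genes needed means of 10 in input and 50 in RPF. P-values were adjusted by Benjamini-Hochberg over all genes tested, threshold 0.05. The smallest p of an exact test of 2 against 2 libraries is 0.333. RPF over input used libraries of the same number. Identifiers of 8125 of 8125 genes matched GENCODE M21, from which coding sequences were built. The 8 genes and the gene lists were chosen with earlier results of these data known. From each list, genes that passed were named, otherwise up to 3 of the highest mean RPF. A gene that meets the rule for the nearest patterns is not reported here. The alternatives took a pseudocount of 1 or of 30, left out the filter or used a stricter one (input mean 100, RPF mean 200), set libraries to equal medians, used edgeR 4.0.16 and DESeq2 1.42.0 on whole reads, thinned reads to the shallowest library, took the replicate number as a block, or left out each library. The fits were also run on simulated reads, and no result given here rests on that run.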

Additional observations from a re-analysis of the deposited data

How the results depend on the processing

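Of 311 alternative values of the members' log2 changes, 280 kept their direction and side of the threshold, 22 changed sign and 9 moved across the threshold. This tally includes the RPF and TE changes of Stmn1. Their side of the threshold carries no test, because the gene was chosen on its RPF change. For Stmn1, the RPF change stayed between -1.73 and -1.36 and the TE change between -1.71 and -1.34. Kif2c passed in input under all 13 alternatives, with changes of 0.54 to 0.58. Most reversals were of changes near 0. With reads thinned to the shallowest library, input changed by 0.00732 for Tuba1b and -0.00754 for Tubb6, and RPF of Tubb6 by -0.21. RPF of Tubb6 was -0.0307 with equalised library medians and -0.0113 with edgeR. With each library left out in turn, input changes ran from -0.181 to 0.177 (Tuba1b), -0.186 to 0.0376 (Tubb4b), -0.0121 to 0.0536 (Tubb6) and -0.0737 to 0.0344 (Stmn1), RPF changes from -0.21 to 1.43 (Tuba1c), -0.341 to 0.00673 (Tubb4b) and -0.164 to 0.191 (Tubb6), and TE changes from -0.26 to 1.37 (Tuba1c), -0.267 to 0.0809 (Tubb4b) and -0.185 to 0.17 (Tubb6).

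In input, 27 genes passed, against 14 with the stricter filter, 45 with DESeq2, and 43 to 586 with each library left out (61 and 43 without knockout replicates 1 and 2, 67 and 586 without control replicates 1 and 2). In RPF, 39 passed, against 84 with the stricter filter, 21 with equalised medians (8 higher and 13 lower in knockout, against 21 and 18), 90 with edgeR, and 34 to 904 (904 and 768 without knockout replicates 1 and 2, 59 without control replicate 2). In TE, 0 passed, against 40 with the stricter filter, 71 with edgeR, 199 with DESeq2, and 0 to 1370 (1370 and 1096 without knockout RPF replicates 1 and 2). The cause was not tested. With 1 library left in a group, that library is assumed to vary like the others.

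With the replicate number as a block, 69 genes passed in input, 126 in RPF and 0 in TE, and it changed no call of a tubulin. The libraries share only a number: deviations of same-numbered knockout and control libraries correlated at 0.08 in input and 0.02 in RPF. Depth limits the RPF values of Tubb2a and Tuba1a most, at 2 to 23 and 10 to 77 reads.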
